A study of Drosophila melanogaster with 9 samples.

Results

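The transcripts of per and tim, the paired repressors of the Drosophila clock, were followed in fly heads around the day. Both genes were chosen by name: per is measured by 1 probe set and tim by 2, here called the first and the second, which makes 2 of the 11982 genes named on the array and 3 of the 18769 probe sets that are not controls. Heads came from a strain that the labels name only 5073, and 9 Affymetrix arrays fall into 6 groups by zeitgeber time (ZT, hours after lights-on): 3 arrays at ZT3, 1 at ZT7, 1 at ZT11, 2 at ZT15, 1 at ZT19 and 1 at ZT23. All groups share the strain, the tissue and the Trizol extraction; genotype, sex, age and light schedule are not stated in the labels, so no value below stands for wild-type flies. Nothing in the labels says that arrays of one time came from separate flies, and p-values measure the spread between these arrays, which may be technical.

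The fly clock is a delayed negative feedback loop. The CLK and CYC proteins bind E-box elements and activate per and tim; the PER and TIM proteins accumulate with a delay, enter the nucleus together and shut down CLK and CYC, and with them their own transcription. TIM protects PER from degradation and is itself destroyed in light through the photoreceptor CRY, so that light resets the loop, and in heads most per and tim transcript comes from photoreceptors and glia. RefSeq lists 2 transcripts of per, a gene of the X chromosome, and 10 of tim, which lies on the left arm of the second chromosome. Which of the tim transcripts each tim probe set detects is not given in the sources used here.

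All 3 probe sets were well measured, with every array above 7.6 where a level of 5 on at least 2 arrays was asked for. Levels are given on a log2 scale, where 1 unit is a doubling, and levels of different probe sets are not comparable. Markers of the head were high on each array, with medians of 13.25 to 13.95 for 10 photoreceptor markers, 10.79 to 11.30 for 7 glial markers and 9.15 to 10.37 for 4 neuronal markers. Markers of organs outside the head were also high on most arrays, which goes against a pure head sample. The median of 14 testis and accessory gland markers was 3.35 in ZT3 replicate 1 and 3.27 in ZT15 replicate 2, against 9.92 to 11.77 in the other 7 arrays. The arrays with the low values are called the 2-array set below. The median of 9 gut markers was 11.64 and 4.12 in the ZT15 arrays. It was 6.12 to 7.25 in the ZT3 arrays and 10.21 to 11.16 in those of the remaining times, which all lay above ZT3. None of the 9 genes passed the tests used below, where 0.033% (24 h rhythm) and 0% (ZT15 against ZT3) of all probe sets did. With the ZT15 arrays so far apart, that count cannot show whether gut content followed the time of day. The part of this other tissue in the levels of per and tim was not tested. In such bulk samples, fewer cells of a type and less RNA per cell cannot be told apart.

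The per transcript was lowest at ZT3, was higher at each sampled time up to ZT15 and was back near its lowest level at ZT23. Its levels were 7.77, 7.63 and 7.78 in the ZT3 arrays, 8.80 at ZT7, 9.29 at ZT11, 9.70 and 9.70 in the ZT15 arrays, 9.05 at ZT19 and 7.88 at ZT23. The ZT15 arrays were the highest of all and the ZT3 arrays the lowest, with ZT23 just above them. By time of day the order of the means was ZT15, ZT11, ZT19, ZT7, ZT23 and ZT3. Of the neighbours in that order, ZT7 and ZT23 differed beyond the spread between arrays, by 0.92 (95% interval 0.33 to 1.52, limma, not adjusted for the number of comparisons); the intervals of the other 4 neighbouring differences included 0.

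Taken 4 h at a time, per was higher at ZT7 than at ZT3 by 1.07 (interval 0.59 to 1.55), or 2.10-fold. It was higher at ZT11 than at ZT7 by 0.49 (interval -0.10 to 1.09) and at ZT15 than at ZT11 by 0.41 (interval -0.10 to 0.92). After ZT15 the differences turned negative: per was lower at ZT19 than at ZT15, with a difference of -0.65 (interval -1.16 to -0.14), and lower at ZT23 than at ZT19, with -1.18 (interval -1.77 to -0.59). ZT23 was above ZT3 by 0.15, with an interval of -0.34 to 0.63. These intervals start from the spread of the replicated times, ZT3 and ZT15, applied to all times. limma moderates that spread towards that of all probe sets (residual df of 3, total df of 4.49). The 4 other times rest on 1 array each.

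The tim transcript, read by the first of its probe sets, was also lowest at ZT3 and was at its upper level at 3 successive times. Its levels were 10.84, 11.10 and 10.95 in the ZT3 arrays, 11.82 at ZT7, 12.93 at ZT11, 13.05 and 13.05 in the ZT15 arrays, 13.08 at ZT19 and 12.05 at ZT23. ZT11, ZT15 and ZT19 formed a plateau above all other times, and the ZT3 arrays were again the lowest. ZT19 was above ZT15 by 0.03 (interval -0.53 to 0.58) and ZT15 above ZT11 by 0.12 (interval -0.44 to 0.67), so these 3 times were not ordered by the data.

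Around the plateau some neighbouring levels differed beyond the spread between arrays, by intervals not adjusted for the number of comparisons. ZT11 was above ZT23 by 0.88 (interval 0.24 to 1.52) and ZT7 above ZT3 by 0.85 (interval 0.33 to 1.38), while ZT23 and ZT7 differed by 0.23 (interval -0.41 to 0.88). The largest step up of tim was between ZT7 and ZT11, at 1.11 (interval 0.47 to 1.76), where that of per was between ZT3 and ZT7. The sizes of these steps were not compared by a test, and the steps meet at the single ZT7 array. In the second tim probe set the steps up to ZT7 and up to ZT11 were 1.29 and 1.31. After the plateau, ZT23 lay below ZT19 with a difference of -1.02 (interval -1.66 to -0.38), and ZT3 below ZT23 with -1.09 (interval -1.61 to -0.56). At ZT23 tim was thus still 2.12-fold above its ZT3 level, a difference of 1.09 (interval 0.56 to 1.61), where per was 1.11-fold above its own.

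**Figure D1:**
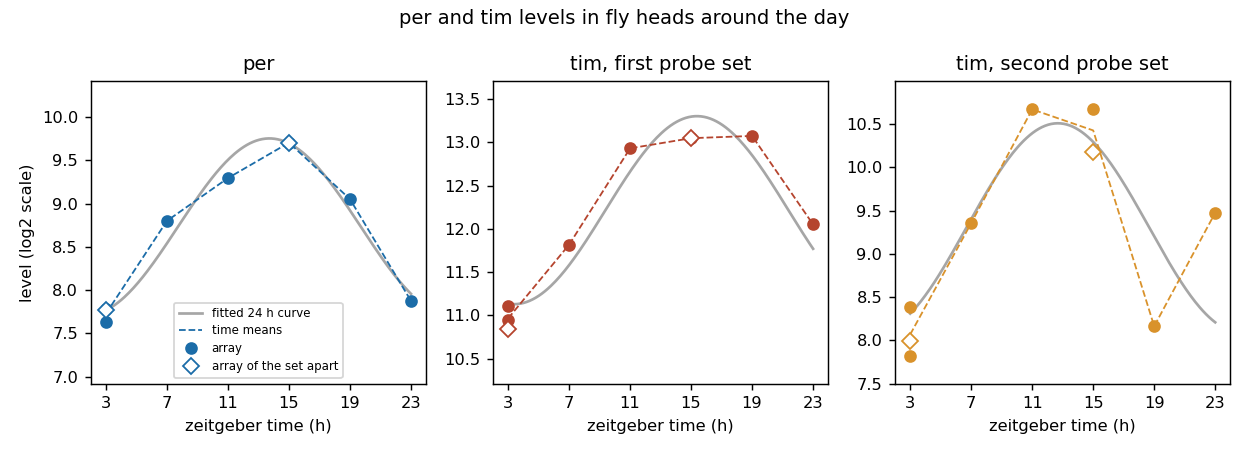
Level of per (left) and of the 2 tim probe sets (middle and right) on the log2 scale against zeitgeber time in hours; points are arrays, open diamonds the 2-array set, dashed lines join the time means and the grey line is the fitted 24 h curve. The axes span the same number of log2 units; per peaks at ZT15 (9.70), the first tim probe set is level from ZT11 to ZT19 (12.93 to 13.08), and the second is at 8.16 in the ZT19 array.

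The second tim probe set ran like the first up to ZT15 and departed from it at ZT19. Its levels were 7.995, 7.82 and 8.39 in the ZT3 arrays, 9.36 at ZT7, 10.67 at ZT11, 10.67 and 10.18 in the ZT15 arrays, 8.16 at ZT19 and 9.48 at ZT23. The ZT19 array lay within the range of the ZT3 arrays, and ZT23 lay above it again. ZT19 was below ZT15 with a difference of -2.26 (interval -3.22 to -1.31), and ZT23 was above ZT19 by 1.31 (interval 0.21 to 2.41). Over the same 3 times the first tim probe set was at 13.05 and 13.05, 13.08 and 12.05.

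The dip at ZT19 rests on 1 array. A time mean at least 1 unit below both flanking times was found at ZT19 in 222 of 12105 probe sets tested (1.83%). The photoreceptor marker median was lowest in this array, at 13.25. Its part in the dip was not tested. The ZT3 and ZT15 replicates of this probe set also spread more widely, with an SD of 0.29 (n = 3) at ZT3 and 0.35 (n = 2) at ZT15, than those of the first tim probe set (0.13 and 0.0051) or per (0.086 and 0.0012).

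At ZT15 the 3 probe sets were 3.93- to 5.13-fold above ZT3, the only other time with replicates. The level of per averaged 9.70 ± 0.0012 at ZT15 (SD, n = 2) and 7.73 ± 0.086 at ZT3 (SD, n = 3), which makes a difference of 1.98 (SE 0.14), or 3.93-fold. By its first probe set tim averaged 13.05 ± 0.0051 at ZT15 and 10.97 ± 0.13 at ZT3 (SD, same n), and differed by 2.08 (SE 0.16), or 4.24-fold. By the second the means were 10.43 ± 0.35 at ZT15 and 8.07 ± 0.29 at ZT3, a difference of 2.36 (SE 0.27) or 5.13-fold. The base of the deposited scale is not stated in the sources used here. These folds take the natural log of the values as log2 levels; taking log2 of the values instead gives 7.21-, 8.04- and 10.6-fold. For each probe set both ZT15 arrays lay above all 3 ZT3 arrays, which held for 3.42% of all 12105 probe sets tested.

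None of the 3 differences passed an adjusted p of 0.05 over all probe sets in limma, with adjusted p = 0.26 for per and for the first tim probe set and 0.80 for the second. No probe set passed in this comparison, higher or lower at ZT15 (0% called each way; 284 had an unadjusted p under 0.05). By p the 3 probe sets ranked 2, 4 and 8 among the 12105. The differences were also taken from the 2-array set alone and then from the remaining arrays. They were 1.93 and 2.00 for per, 2.21 and 2.02 for the first tim probe set, and 2.19 and 2.57 for the second. The remaining arrays were not all alike. ZT3 replicates 2 and 3 correlated at 0.994 with each other over all probe sets tested, and each at 0.94 with ZT15 replicate 1. Their median levels were 6.36 and 6.36, against 6.60 in that ZT15 array. An added control (bioB) averaged 9.04 and 8.21 in them, against 7.79. The part of these array differences in the change from ZT3 was not tested. Without the 2-array set the adjusted p was 0.0024, 0.0024 and 0.0046, and 2323 of 11865 probe sets passed. That fit sets 1 ZT15 array against 2 ZT3 arrays and takes its spread from those ZT3 arrays alone (residual df of 1, moderated over probe sets), with the lone ZT15 array assumed to vary like them.

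Over the whole day per followed a 24 h curve that passed the test over all probe sets. The fitted cosine had an amplitude of 1.02 (SE 0.078), the height of the curve above its mean, a peak at ZT13.7 (SE 0.38 h) and a span of 4.12-fold (limma's moderated F, adjusted p = 0.023). Only 0.033% of all probe sets tested, 4 of 12105, passed. By p per ranked 3 among them, and by amplitude 122, against a median amplitude of 0.16 and a 99th percentile of 1.02 over all tested. The curve took up 97.4% of the variance of per between arrays, and its largest miss was the ZT7 array, at 0.26 above the curve.

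The first tim probe set had a similar amplitude of 1.09 (SE 0.12), a span of 4.51-fold and a later fitted peak, at ZT15.4 (SE 0.57 h), and did not pass (limma's adjusted p = 0.13). The curve took up 93.2% of its variance. The arrays left a common pattern around it: both ZT15 arrays lay below the curve (-0.25 and -0.25), as did the 3 ZT3 arrays (-0.29, -0.03 and -0.19), and ZT7, ZT11, ZT19 and ZT23 all lay above it (0.24, 0.27, 0.22 and 0.28). With the 2-array set as a block in the fit, the amplitude was 1.10 (SE 0.095) and tim passed (adjusted p = 0.025, where 0.248% of probe sets passed). The second tim probe set had an amplitude of 1.21 (SE 0.32) with a peak at ZT12.7 (SE 1.12 h) and did not pass (limma's adjusted p = 0.97). Its curve took up 68.9% of the variance, and missed ZT19 by -1.04 and ZT23 by 1.27.

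The call for per depended on single arrays. It was lost on leaving out any 1 of the ZT3 arrays, the ZT11, ZT19 or ZT23 array or ZT15 replicate 1 (limma's adjusted p from 0.054 to 0.277), and kept without ZT7 (0.0195) or ZT15 replicate 2 (0.0474). The curve itself hardly moved, with amplitudes from 1.00 to 1.10 and peaks from ZT13.4 to ZT14.2. With 1 mean per time, which does not count the arrays of a time separately, no probe set passed (0 of 11841), per included. The first tim probe set peaked between ZT14.9 and ZT15.9 with 1 array left out, after per each time. The second depended on the last 2 arrays: its peak was at ZT14.5 (SE 1.07 h) without ZT19 and at ZT11.8 (SE 0.39 h) without ZT23, with amplitudes of 1.19 and 1.71.

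**Figure D2:**
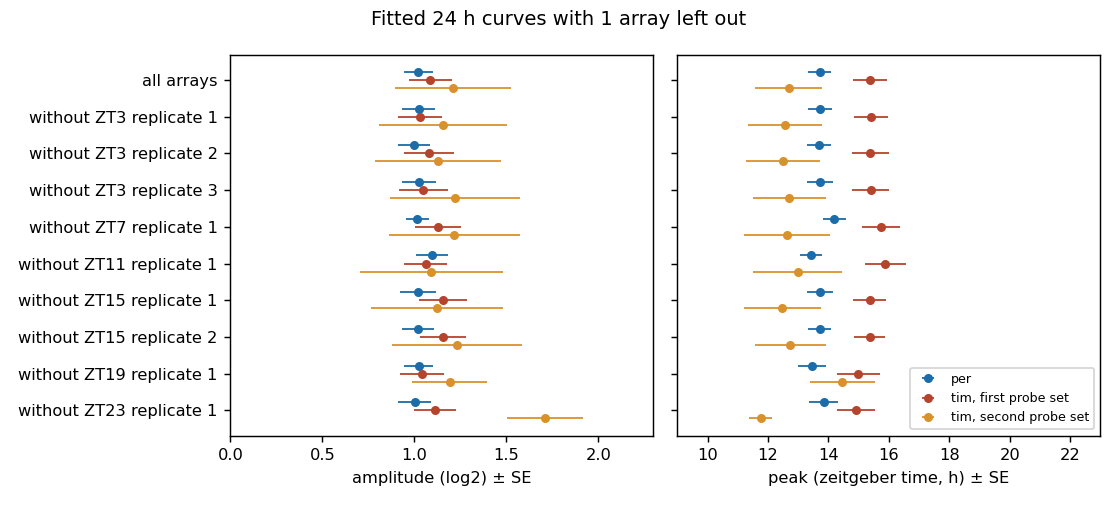
Amplitude (left, log2) and peak time (right, hours) of the fitted 24 h curve for each probe set, with all 9 arrays in the top row and with 1 array left out in each row below; bars are SE. The per points stay between 1.00 and 1.10 and the peaks of the first tim probe set stay to the right of the per peaks, while the second moves to an amplitude of 1.71 without ZT23.

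Whether tim and per followed the same course was tested on the difference between the tim and per levels within each array. This difference, the first tim probe set minus per, was 3.07, 3.48 and 3.16 in the ZT3 arrays, 3.02 at ZT7, 3.64 at ZT11, 3.34 and 3.35 in the ZT15 arrays, 4.02 at ZT19 and 4.18 at ZT23. The size of this difference has no meaning across probe sets, but its course can be read: the ZT19 and ZT23 arrays were above all 7 others. A 24 h curve fitted to it had an amplitude of 0.46 and its maximum at ZT20.0, and took up 51.2% of the variance. By an exact permutation test over all 30240 assignments of the 9 arrays to the times, this was not beyond the threshold (p = 0.12, adjusted p = 0.20 over the 2 such differences computed). Without the ZT11 array the amplitude was 0.69 and the exact permutation p was 0.0122 (adjusted p = 0.0244); with any other array left out the adjusted p was at least 0.17.

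The 2 tim probe sets were compared in the same way. The second minus the first was -2.85, -3.28 and -2.56 in the ZT3 arrays, -2.46 at ZT7, -2.26 at ZT11, -2.37 and -2.87 in the ZT15 arrays, -4.91 at ZT19 and -2.58 at ZT23. Outside ZT19 the values stayed between -3.28 and -2.26. The fitted curve had an amplitude of 0.80 (exact permutation p = 0.20, adjusted p = 0.20). The amplitude was 0.22 without the ZT19 array. Without the ZT23 array it was 1.26, where the exact permutation test gave p = 0.0247 (adjusted p = 0.0494). With any other array left out the adjusted p of that test was at least 0.17. A 24 h curve cannot follow a departure at 1 time alone, so this test cannot decide whether the 2 probe sets ran alike.

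**Figure D3:**
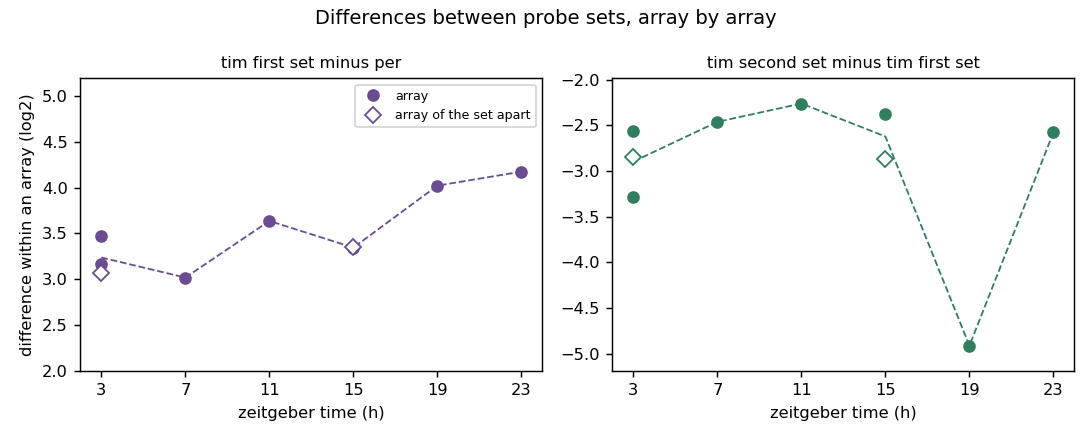
Difference between probe sets within each array (log2) against zeitgeber time in hours, for the first tim probe set minus per (left) and the second tim probe set minus the first (right); points are arrays, open diamonds the 2-array set, and dashed lines join the time means. On the left ZT19 (4.02) and ZT23 (4.18) lie above the other arrays, and on the right ZT19 (-4.91) lies below them.

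The activators, partners and fellow targets of per and tim in the clock were Clk, cyc, vri, Pdp1, cwo and cry. Of these 6, 2 passed the test for a 24 h rhythm (0.033% over all probe sets), Clk and cry, and none passed for ZT15 against ZT3 in either direction (0%). The median amplitude of the 6 was 0.82, and their median difference 0.31. vri, a target of CLK that represses Clk in turn, ran closest to per: it had levels of 10.13, 9.87 and 9.80 at ZT3, 11.32 at ZT7, 11.91 at ZT11, 11.80 and 12.27 at ZT15, 11.65 at ZT19 and 10.15 at ZT23. Like per and unlike tim, vri was back near its ZT3 level at ZT23. It peaked at ZT13.6 on the fitted curve, of amplitude 1.15 (SE 0.13), and missed the threshold in limma (adjusted p = 0.13); with the 2-array set as a block it passed (adjusted p = 0.0475), which made 3 of the 6 called, where 0.248% of all probe sets were.

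Clk, the activator gene, ran opposite to per. Its levels were 9.63, 9.74 and 9.82 at ZT3, 8.75 at ZT7, 7.71 at ZT11, 7.33 and 7.11 at ZT15, 8.14 at ZT19 and 9.46 at ZT23. Its lowest time, ZT15, was the highest of per. Over the 6 time means the correlation of per was 0.99 with vri, -0.99 with Clk, 0.85 with the first tim probe set and 0.60 with the second. That of the first tim probe set was 0.86 with vri, -0.89 with Clk, and -0.86 with cry, where per and cry stood at -0.58. These are descriptions over 6 times that share the same arrays.

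cry, which encodes the blue-light receptor that targets TIM, had its low point at ZT19. There the first tim probe set was still high, while the second was at 8.16, near its ZT3 level. It was at 10.76, 10.97 and 10.86 at ZT3, 10.57 at ZT7, 9.96 at ZT11, 9.01 and 9.15 at ZT15, 8.63 at ZT19 and 9.75 at ZT23. The curve of cry peaked at ZT5.3, its amplitude was 1.10 (SE 0.097), and it passed in limma (adjusted p = 0.041). The remaining targets had smaller curves: Pdp1, which encodes an activator of Clk, had an amplitude of 0.36 (SE 0.16) at ZT14.4, and cwo, which encodes a repressor acting on the same E-boxes, 0.55 (SE 0.24) at ZT16.3. cyc, the constant partner of Clk in wild-type flies, had 0.096 (SE 0.12).

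**Figure D4:**
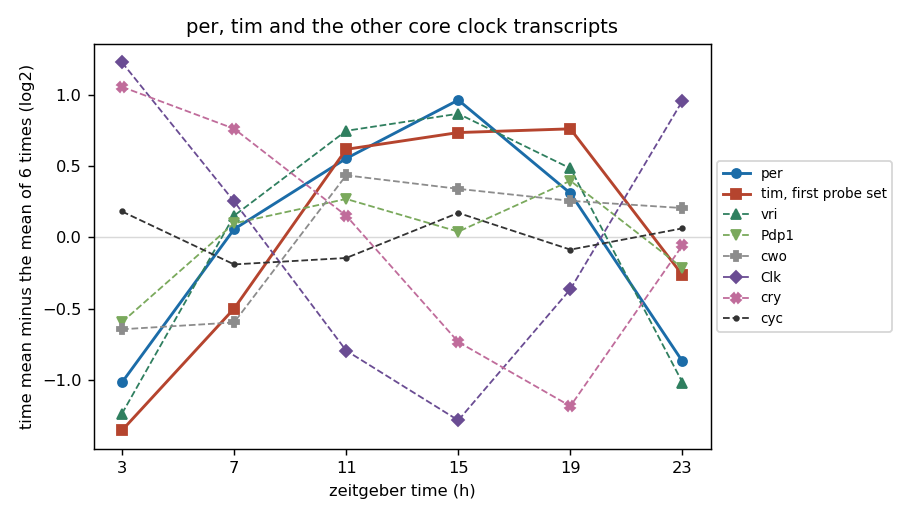
Time means of per, tim (the first probe set) and 6 other core clock transcripts, each minus the mean of its 6 times (log2), against zeitgeber time in hours; solid lines are per and tim, dashed lines the others, and ZT3 and ZT15 are means of 3 and 2 arrays. per and vri are close throughout, Clk is their mirror image, and tim stays up at ZT19.

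Enzymes that act on clock proteins were looked at next. Of 18 kinases, phosphatases, ligases and other modifiers listed, 13 were measured, and none passed either test (0.033% and 0% over all probe sets). Their median amplitude was 0.14, against 0.16 over all probe sets, and their median ZT15 minus ZT3 difference -0.06, against -0.04. dco (doubletime), the kinase that marks PER for degradation, had an amplitude of 0.22 (SE 0.089). slmb, the ligase subunit that recognises phosphorylated PER, had 0.14 (SE 0.092), and jet, the ligase subunit that acts on TIM in light, 0.066 (SE 0.11) at a level of 5.35. Usp8, a ubiquitin protease that acts on CLK, had the largest amplitude, 0.90 (SE 0.13) with a peak at ZT11.1 (limma's adjusted p = 0.25). CkIIbeta2 followed with 0.40 (SE 0.34). Its means were lowest at ZT3 (5.52) and ZT15 (5.86), the times that hold the 2-array set, against 6.43 to 7.41 at the others. The part of other tissue in this course was not tested.

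The kinase genes sgg, CkIIalpha, CkIIbeta and nmo and the phosphatase gene mts were not analysed here. Among 6 measured genes that act on translation of per and tim or on repression by their products, none passed either test. Over all probe sets 0.033% passed for the rhythm and 0% for ZT15 against ZT3. The median amplitude of the 6 was 0.17, against 0.16 over all probe sets. nej, which encodes a co-activator of CLK, had 0.52 (SE 0.18) at ZT7.7, and Cipc, named for a mammalian inhibitor of CLOCK, 0.50 (SE 0.13) at ZT13.1. tyf and Atx2, whose products promote per translation in clock neurons, had 0.084 (SE 0.10) and 0.24 (SE 0.12). timeout, the paralog of tim, reached at most 4.58 in any array and was below the filter.

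Of the genes next to per and tim, those with a probe set did not pass the rhythm test. dyw (daywake), which follows per in the RefSeq gene order, was between 4.67 and 4.85 in 7 arrays and reached 7.02 at ZT11 and 5.75 in ZT15 replicate 2, where the other ZT15 array was at 4.74. Its fitted amplitude was 0.81 (SE 0.32) with an adjusted p of 1.00 in limma, and it passed the filter on those 2 arrays alone. CG15414, which precedes tim, stayed between 6.68 and 7.83, and had an amplitude of 0.30 (SE 0.19) and the same adjusted p. The genes on the other sides are long noncoding RNAs without a probe set here.

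Transcripts with a day course like that of per were sought only among probe sets of wide span. Among 3018 other probe sets whose time means spanned at least 1 unit, 4 correlated with per at 0.9 or more over the 6 time means, and 6 at -0.9 or less. The 8 genes most like per were vri (0.99), Gld (glucose dehydrogenase, 0.93), gol (a ubiquitin ligase, 0.92), CG30271 (0.90), CG9864 (0.90), ATPsynbetaL (0.89), cyr (0.87) and mdu (0.85). Their fitted peaks lay between ZT12.5 and ZT15.4, and apart from vri their amplitudes were 0.50 to 0.72. None of the 8, vri included, passed the rhythm test on all arrays without the block. The 5 most opposed were Clk (-0.99), CG1441 (-0.95), CG13305 (-0.95), CG5644 (-0.91) and CG14329 (-0.90), which peaked from ZT1.1 to ZT2.0.

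The genes closest to tim overlapped in part. For the first tim probe set, 14 probe sets correlated at 0.9 or more and 22 at -0.9 or less. CG9864 (0.99), veil (0.97), mdu (0.96), sit (0.94), Vha100-4 (a subunit of the vacuolar proton pump, 0.94), CG13855 (0.94), nompB (an intraflagellar transport gene of sensory cilia, 0.92) and cona (0.92) were most like it, with fitted peaks from ZT14.9 to ZT16.3. CG9864 and mdu were on both lists. CG9864 had levels of 8.24, 7.11 and 7.05 at ZT3, 8.18 at ZT7, 8.82 at ZT11, 9.35 and 8.42 at ZT15, 8.80 at ZT19 and 8.15 at ZT23, so its replicates spread more than those of tim, and over the 9 arrays it correlated with tim at 0.81.

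The most opposed to tim were CG42329 (-0.99), GstZ2 (a glutathione S-transferase, -0.98), Jhe (juvenile hormone esterase, -0.98), Cpr72Ec (a cuticle protein gene, -0.98) and Ugt35B1 (a glycosyltransferase, -0.98), with fitted peaks from ZT3.0 to ZT4.0. None of them was on the list most opposed to per. Over the 9 arrays Jhe and Cpr72Ec correlated with tim at -0.98 and -0.97, and CG42329, GstZ2 and Ugt35B1 at -0.94, -0.88 and -0.86. The 8 genes most like tim ran from 0.61 (veil) to 0.93 (nompB) over the 9 arrays. Those most like per ran from 0.74 (Gld) to 0.98 (vri). None of the 5 genes most opposed to tim passed the rhythm test (limma's adjusted p from 0.21 to 1.00). With 6 points and 3018 probe sets, and with arrays that also differed in gut and testis markers, these likenesses describe this table only.

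Because per and tim are transcribed largely in photoreceptors and glia, their course was also taken relative to markers of those cells, a choice made after the values were seen. The photoreceptor median was 13.83 to 13.95 at ZT3, 13.68 at ZT7, 13.71 at ZT11, 13.50 and 13.72 at ZT15, 13.25 at ZT19 and 13.37 at ZT23, with its lowest values in those last 2 arrays. With arrays centred on it, per had an amplitude of 1.11 (SE 0.11) at ZT14.6 and the first tim probe set 1.27 (SE 0.17) at ZT16.0. With arrays centred on the glial median the values were 1.07 (SE 0.12) at ZT13.9 and 1.15 (SE 0.18) at ZT15.5. The second tim probe set had amplitudes of 1.23 with photoreceptor centring and 1.24 with glial centring. The amplitudes were no smaller than without centring, and per no longer passed (limma's adjusted p = 0.088 and 0.10). The photoreceptor median was highest at ZT3, where per and tim were lowest, so centring on it widened their rise from ZT3 by construction. The part of cell content in these courses was not tested.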

How the data were processed

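The deposited intensity values, 1 per probe set and array, were made by the authors with GCRMA (background correction, normalization across arrays and summary), per the submitters' processing notes; its version and options are not stated there. The base of the deposited scale is not stated. Added control transcripts (1.5 to 100 pM) had a slope per doubling of 1.05 ± 0.060 (SD, 9 arrays) on the natural log and 1.51 on log2, so natural logs of these values were taken as the authors' log2 value; on log2 of the deposited values each difference would be 1.44 times larger, for example 2.85 for per. Control probe sets (183) were left out and those reaching 5 on at least 2 arrays tested (12105). Of 18769 probe sets, 13647 named 1 gene, 402 several and 4720 none here; names were updated through RefSeq (13544 matched). No coordinates are given, since no build is named.

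limma 3.58.1 in R 4.3.3 was run on all probe sets: ZT15 minus ZT3 from 6 group means (residual df of 3), and a cosine and sine of 24 h (residual df of 6), with Benjamini-Hochberg adjustment over all tested. Both were run on simulated data with independent noise and no 2-array set, so that run does not show how they behave with such a set. The timing differences used exact permutation tests in Python 3.11.15. The number of arrays limits the precision. Named beyond per and tim were 6 clock partners, the 2 modifiers and the 2 translation or repression genes of largest amplitude, and the 8 most like and 5 most opposed genes by correlation over time means; dco, slmb, jet, tyf and Atx2 were added for their role after their values were seen. Members and lists were chosen with earlier results of these data known. Alternatives were the filter, quantile and median scaling, the scale, the 2-array set as a block or left out, each array left out, a replicate block, 1 mean per time, time as a factor and, added later, centring on cell markers.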

Additional observations from a re-analysis of the deposited data

How the results depend on the processing

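The ZT15 minus ZT3 differences of per and tim were positive under every alternative run. Fitted peaks ranged from ZT13.4 to ZT14.6 for per, ZT14.9 to ZT16.0 for the first tim probe set and ZT11.8 to ZT14.5 for the second, leaving aside time as a factor, which gives no peak. For ZT15 minus ZT3, leaving out the 2-array set gave 2.00 for per, 2.02 for the first tim probe set and 2.57 for the second, all then past the threshold, with 2323 probe sets called against 0; the spread in that fit comes from 2 ZT3 arrays alone and the lone ZT15 array is assumed to vary like them. With 1 array left out the differences ran from 1.93 to 2.00, 2.02 to 2.15 and 2.11 to 2.61, with no call.

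For the 24 h curve, per (amplitude 1.02) lost its call with arrays centred on their medians (0.97), 1 mean per time (1.00), time as a factor (0.99), photoreceptor centring (1.11) and glial centring (1.07); amplitudes without 1 array were 1.00 to 1.10. The first tim probe set gained one with the 2-array block (1.10). The count of 4 rhythmic probe sets became 1 with median centring, 30 with the block, 72 without the 2-array set, 0 with 1 mean per time or time as a factor, and 2 to 11 without 1 array. Where no construction shows it, the cause was not tested. Without 1 array the curve of the first tim probe set minus per had amplitudes of 0.32 to 0.69, and that of the second minus the first 0.22 to 1.26.

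The numbers in the labels did not pair the arrays. Deviations from the group means over all probe sets correlated at -0.86 for number 1 and -0.81 for number 2 between ZT15 and ZT3. The 2 ZT15 arrays deviate from their mean by equal and opposite amounts, so these are not 2 separate checks. ZT15 replicate 2 went with ZT3 replicate 1 (0.86), the 2-array set. With the replicate block the differences were 2.00, 2.07 and 2.52, with 0 probe sets called in limma, as without it (284 at an unadjusted p under 0.05 without it). Single arrays at 4 of 6 times limit what can be said of ZT7, ZT11, ZT19 and ZT23, the dip of the second tim probe set included.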
